A study of Homo sapiens with 20 samples.

Results

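The 9 transcripts described here encode the m6A writer complex and its relatives: METTL3, METTL14, WTAP, VIRMA, ZC3H13, RBM15, RBM15B, CBLL1 and METTL16. They were chosen by name, and an m6A peak was counted for a gene when its summit, the position of strongest pull-down within the peak, lay in an exon of that gene. Of 10237 protein-coding genes with an exonic summit in at least 1 list, these are 9, and they held 251 of the 231465 peaks in all lists. The peaks came from methylated RNA immunoprecipitation sequencing (MeRIP-seq), which enriches RNA fragments carrying N6-methyladenosine (m6A) by antibody and compares them with input RNA. T24 cells are human bladder cancer cells sensitive to cisplatin. T24R2 cells, resistant to it, were derived from T24 by serial exposure to the drug and are kept in medium with cisplatin. Each line gave 5 immunoprecipitation (IP) libraries, whose inputs entered only as the background of peak calling. Both are labelled wild type and were taken at day 3. T24R2 is 1 derived line, so resistance and the other history of that line cannot be told apart. The labels number the replicates without saying whether they were separate cultures, so p-values measure the spread between these samples, which may be technical.

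METTL3 is the catalytic subunit that transfers a methyl group to adenosine, METTL14 is its partner that holds the RNA, and WTAP keeps the pair in nuclear speckles. VIRMA, ZC3H13, CBLL1 (also called HAKAI), RBM15 and RBM15B are the regulatory subunits: VIRMA is a large scaffold, ZC3H13 bridges parts of the complex, CBLL1 is a RING finger protein, and the RBM15 proteins bind RNA and bring the complex to its sites. METTL16 works apart from the complex, methylates a few structured RNAs and acts on MAT2A, whose product makes the methyl donor. In mRNA, m6A is known to lie mostly in long internal exons and near the stop codon, within a short sequence motif.

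The lists held 17203 to 33120 peaks, the longest from replicate 5 of T24R2, and they give no read counts, so the depth of each library is unknown. Over the 9577 regions called in all 10 libraries the median −log10 q of the peaks ranged from 12.4 to 24.3 in T24 and from 17.6 to 32.9 in T24R2. Of 12 urothelial marker genes, 6 had an exonic peak in at least 1 list, and a gene without a peak may still be expressed. A 3′UTR region of GATA3 had a peak in 5 T24 libraries and in 0 T24R2 libraries (Fisher's exact test, adjusted p = 0.195), and the 3′UTR region of FOXA1 had a higher fold enrichment in T24R2 (log2 difference 1.07, limma adjusted p = 0.0324). A 5′UTR region of FOXA1, listed in 5 T24 and 4 T24R2 libraries, was outside the level test. Its median fold enrichment was 4.6 in T24 and 4.9 in T24R2. GATA3 and FOXA1 encode luminal transcription factors and were picked from the 12 after their values were seen. Their part in the results below was not tested.

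Sequences under some of the members' summits are printed first, in the sense of the RNA with DNA letters, 5′ to 3′, from hg38. Coding windows reach 30 nt to each side of the middle summit of the largest summit cluster, and the 3′UTR site is 25 nt around the motif match near a summit. Distances to the stop codon count from its first base. Capitals mark the DRACH motif (A, G or T, then A or G, then AC, then A, C or T). Each printed window holds a match. Windows of this size with 0 matches, among them those of RBM15B and of ZC3H13 exon 15 (region 4), are not printed.
METTL3 exon 3 (chr14:21503238-21503298, minus strand): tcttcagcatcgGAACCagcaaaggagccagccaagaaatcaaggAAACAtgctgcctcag
METTL14 last exon, coding (chr4:118710139-118710199, plus strand): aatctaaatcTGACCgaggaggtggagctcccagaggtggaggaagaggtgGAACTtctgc
METTL14 3′UTR site (chr4:118711043-118711067, plus strand): GAACTtggatTGACCttaaatttta
WTAP last exon, coding (chr6:159755416-159755476, plus strand): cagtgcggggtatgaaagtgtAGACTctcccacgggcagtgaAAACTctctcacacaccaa
ZC3H13 exon 10 (chr13:45985605-45985665, minus strand): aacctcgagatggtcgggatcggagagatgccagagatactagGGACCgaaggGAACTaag
ZC3H13 exon 11 (chr13:45979879-45979939, minus strand): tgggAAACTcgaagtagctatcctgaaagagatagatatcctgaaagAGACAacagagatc
ZC3H13 exon 16 (chr13:45965327-45965387, minus strand): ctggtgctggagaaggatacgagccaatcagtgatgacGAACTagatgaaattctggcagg
RBM15 exon 1 (chr1:110340336-110340396, plus strand): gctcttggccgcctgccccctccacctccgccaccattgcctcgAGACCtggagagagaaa
CBLL1 last exon, coding (chr7:107759086-107759146, plus strand): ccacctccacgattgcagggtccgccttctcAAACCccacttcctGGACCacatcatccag
METTL16 last exon, coding (chr17:2420259-2420319, minus strand): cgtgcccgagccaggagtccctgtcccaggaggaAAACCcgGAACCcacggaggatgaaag

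The motif was searched in genomic windows of 101 nt around 1 summit per region, for regions of genes on 1 strand. It was found on the sense strand of 28 of 30 writer complex windows, beside 88.7% of 23699 exonic windows of the same length from all protein-coding genes. On the antisense strand it was found in 18 of the 30 windows and in 72.1% of the whole set, so most windows of this length hold the motif on either strand. The letters GGAC were present on the sense strand of 12 of the 30 windows, beside 46.5% of the whole set, and on the antisense strand of 6, beside 25.8%; GGAC is contained in part of the DRACH matches. A match describes the letters in a window and does not place the modified base.

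Peaks that overlapped across lists were merged into regions, and the members' exonic peaks fell into 32 regions, numbered below along the chromosome. Of these, 24 had their middle summit in coding sequence of the canonical transcript (the reference isoform marked in GENCODE), 5 in the 3′UTR, none in the 5′UTR, and 3 in an exon of another isoform. By summits, 205 of 231 that lay on a canonical transcript were coding (88.7%), where the share over all protein-coding genes was 60.4%. The 3′UTR held 11.3% of the members' summits and 32.5% of all. ZC3H13 and VIRMA, with long coding sequences, gave 81 and 38 of the 251 summits, so these shares weigh those transcripts most. Exons over 400 nt held 77.1% of the members' summits, beside 81.2% of all, and 21.2% lay within 200 nt of the stop codon, beside 23.5% of all. Both limits were set with the values known.

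**Figure D1:**
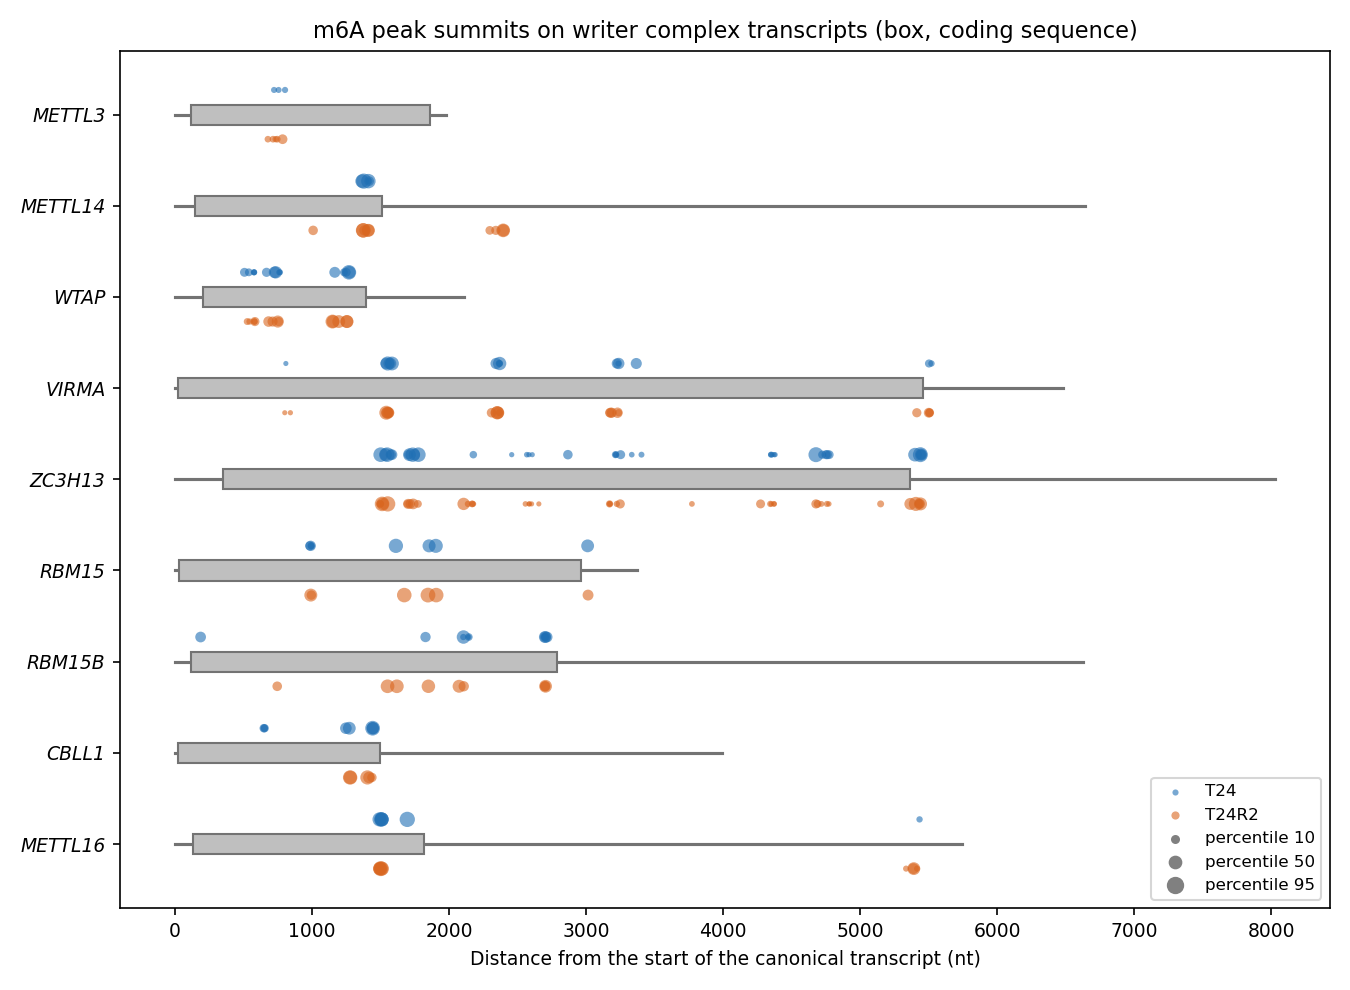
Summits of exonic m6A peaks on the canonical transcripts of the 9 writer complex genes, as distance from the transcript start in nt, with T24 libraries above each transcript and T24R2 libraries below, grey boxes for coding sequence and point area rising with the percentile of fold enrichment within the list. The WTAP 5′ region lies outside the canonical transcript and is not drawn. METTL3 carried small points in exon 3 in both lines, and METTL14 carried 3′UTR points in T24R2 only among these libraries.

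A summit within 200 nt of the METTL14 stop codon was present in all 10 lists, and the same held for ZC3H13. RBM15B had such a summit in 8 lists, WTAP, VIRMA and CBLL1 in 6 each, RBM15 in 2, METTL16 in 1 and METTL3 in none. These are 8 of 9 members with a summit there in at least 1 list, beside 62.7% of the 9647 protein-coding genes with a summit on the canonical transcript. Of the 5207 with such a summit in all 10 lists, the share was 70.35%. The last-exon WTAP region was in all 10 lists. In the lists not counted for WTAP, its summit lay 201 to 247 nt before the stop codon. Those lists, T24 replicate 1 and T24R2 replicates 1, 2 and 4, had median peak widths of 257 to 353 nt. In the other lists the median widths were 186 to 236 nt. Whether peak width takes part in these counts was not tested.

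An exonic summit was present in all 10 lists for 8 of the 9 members, the exception being METTL3. Among protein-coding genes with an exonic summit in any list, 53.9% had one in all 10. Per library, the members together had 22, 21, 26, 27 and 25 exonic summits in T24 replicates 1 to 5 (mean 24.2 ± 2.59 SD, n = 5). T24R2 replicates 1 to 5 had 27, 24, 24, 24 and 31 (mean 26 ± 3.08 SD, n = 5). The ranges overlapped, and the mean difference of 1.8 summits was below the SD of either line. Relative to list length the members had 11.8 ± 0.563 summits per 10000 peaks in T24 (range 10.9 to 12.2) and 10.1 ± 0.818 in T24R2 (range 9.36 to 11.3). This direction is opposite to that of the counts, with means further apart than either SD and ranges that overlapped. The same measure was not taken for other genes, and whether the longer T24R2 lists take part was not tested. Relative to transcript length, and counting summits on the canonical transcript alone, WTAP was densest with 1.38 summits per kb and library, then ZC3H13 with 0.985 and VIRMA with 0.587, beside a median of 0.479 over genes with such a summit in all 10 lists. METTL14 was sparsest with 0.226.

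The strength of a peak is given by its fold enrichment of IP over input as the peak caller wrote it, and by the percentile of that value within the library's own list. By the median over lists of the strongest exonic peak, the order was WTAP (90.9), ZC3H13 (85.6), METTL16 (78.4), RBM15 (73.0), METTL14 (72.9), VIRMA (67.1), CBLL1 (61.0), RBM15B (59.2) and METTL3 (7.16). The median over genes present in all 10 lists was 77.2. Libraries spread widely within a gene: the strongest METTL14 peak ran from the 8.99th to the 94.4th percentile, and that of METTL16, the narrowest of the 8, from 63.7 to 95.7. Ranges of neighbouring genes from WTAP to RBM15B overlapped throughout, whereas the METTL3 range, 5.02 to 31.8, overlapped that of its nearest neighbour RBM15B, 15.0 to 74.3, only through replicate 5 of T24R2. The WTAP rank rested on 1 region at its 5′ end that also lies over SOD2. Without it the WTAP median was 62.7.

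**Figure D2:**
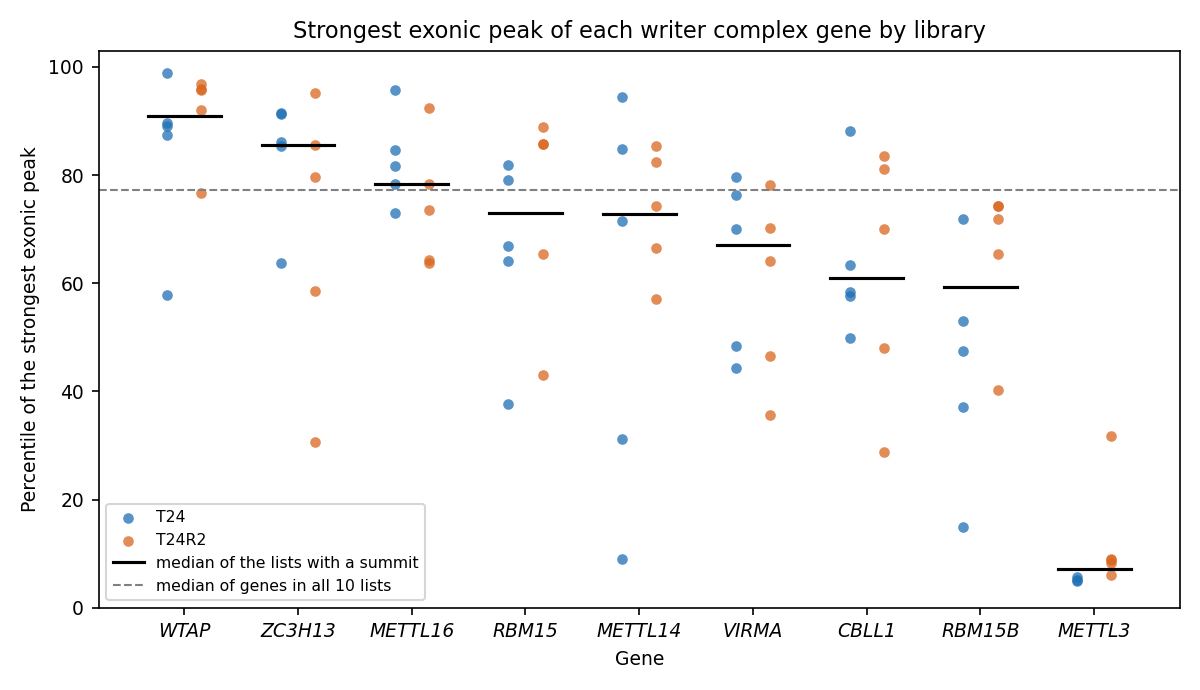
Percentile, within each library's list, of the strongest exonic peak of each writer complex gene (1 point per library and line; lists without a summit have no point; black bars, median of the lists with a summit; dashed line, median of genes present in all 10 lists, 77.2). METTL3 sits lowest, with 7 of its 8 points below the 10th percentile.

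METTL3 had 1 region, in exon 3 of 11 (ENST00000298717.9), with its middle summit 627 nt after the start codon and 1113 nt before the stop codon, at codon 210. No T24 peak was listed there in replicates 1 and 2, and replicates 3, 4 and 5 had fold enrichments of 3.39, 3.36 and 3.27, at percentiles 5.21, 5.02 and 5.72. In T24R2 all 5 libraries had it, with fold enrichments of 3.62, 4.10, 3.28, 3.85 and 5.36 and percentiles of 9.02, 8.31, 6.0, 8.81 and 31.8. The METTL3 peak was thus below the 10th percentile in 7 of the 8 lists that had it, and present in 5 T24R2 against 3 T24 libraries (Fisher's exact test, two-sided p = 0.444, adjusted p = 1.00 over all regions). Among peaks with −log10 q of at least 5 the counts were 1 of 5 and 5 of 5 (unadjusted p = 0.0476 by Fisher's exact test), and with every list trimmed to its 17203 most significant peaks 0 of 5 and 4 of 5 (the same unadjusted p), with adjusted p-values of 0.549 and 0.60. The −log10 q of this peak was 2.41, 5.8 and 2.35 in T24 and 5.28 to 11.6 in T24R2. The median −log10 q over regions called in all 10 libraries also ran higher in T24R2, though the lines overlapped. It was 24.3 and 13.7 in T24 replicates 1 and 2, which lacked the peak, and 17.6 to 32.9 in T24R2. Whether this takes part in the METTL3 counts was not tested. METTL3 was outside the level test, which used regions called in all 10 libraries. In a fit of regions called in at least 3 libraries of each line, chosen after the data were seen, the METTL3 log2 difference among libraries with the peak was 0.19 (95% confidence interval −0.37 to 0.75, limma adjusted p = 0.809).

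METTL14 had 3 regions. The coding region in the last exon (exon 11, ENST00000388822.10), 131 nt before the stop codon, was present in all 10 lists, with its summits spread over only 53 nt. Its fold enrichment was 9.80, 3.78, 12.5, 16.5 and 5.37 in T24 replicates 1 to 5 and 5.64, 13.2, 7.86, 11.5 and 7.27 in T24R2. Both lines had high and low libraries, and the log2 difference of T24R2 minus T24 was −0.04 (95% confidence interval −0.70 to 0.61, limma adjusted p = 0.970). The 3′UTR region (region 3), with a middle summit 828 nt after the stop codon, was listed in 4 T24R2 libraries and in 0 from T24 (Fisher's exact test, unadjusted p = 0.0476, adjusted p = 0.517). Its T24R2 fold enrichments were 9.11, 5.51, 5.23 and 7.32 in replicates 1, 2, 4 and 5, at percentiles 74.3, 23.0, 26.7 and 57.2. Summits formed 2 clusters in that region, 784 and 882 nt after the stop codon, in 2 libraries each. With lists trimmed to equal length the region was left in 1 T24R2 list. The remaining METTL14 region, in exon 10, was listed in replicate 5 of T24R2 alone, at the 29.8th percentile.

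WTAP had 4 regions, each called in all 10 libraries. The 5′ region (chr6:159726145-159727338) held the strongest peaks, with fold enrichments of 24.4, 5.04, 13.3, 13.9 and 12 in T24 and 8.96, 16.0, 15.0, 18.9 and 17.0 in T24R2. Its main summit cluster lay upstream of the canonical WTAP transcript, in the first exon of 1 longer isoform (ENST00000358372.8) and in exons of SOD2, a mitochondrial superoxide dismutase gene on the opposite strand. Since the lists carry no strand, WTAP and SOD2 RNA cannot be told apart there. The other 3 regions lay in coding exons 6, 7 and 8 of 8, with middle summits 818, 660 and 163 nt before the stop codon. Among peaks with a summit in a canonical exon, fold enrichments ranged from 2.48 to 5.42 in exon 6, from 3.00 to 7.42 in exon 7 (9 libraries) and from 4.5 to 12.7 in exon 8. Stronger peaks with summits outside those exons fell in the exon 6 region in T24 replicates 3 and 5 (5.68 and 6.24) and in the exon 7 region in T24R2 replicate 2 (9.30). From the 5′ to the last region, log2 differences of T24R2 minus T24, which use the strongest peak anywhere in a region, were 0.17, −0.34, 0.28 and 0.23, and every 95% confidence interval spanned 0 (limma adjusted p from 0.607 to 0.860). With canonical exonic summits alone, a setting chosen after the data were seen, the exon 6 difference was −0.01 and the exon 7 difference 0.18.

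VIRMA (chr8, minus strand, ENST00000297591.10) had 5 regions, 4 of them coding, in exons 7, 8, 9 and 13 of 24, and 1 in the 3′UTR. The exon 8 region, with summits 3902 nt before the stop codon, had fold enrichments of 7.24, 9.43, 6.73, 6.44 and 9.85 in T24 and 5.59, 7.29, 6.50, 6.93 and 10.1 in T24R2. The lines overlapped, with a log2 difference of −0.23 (95% confidence interval −0.75 to 0.29, limma adjusted p = 0.757). The exon 9 region was also in all 10 lists and gave 0.23 (95% confidence interval −0.37 to 0.83, limma adjusted p = 0.791). In the 3′UTR, 45 nt after the stop codon, a peak was listed in 2 T24 and 4 T24R2 libraries. The exon 13 region was in 4 and 5 libraries and the weak exon 7 region, below the first percentile, in 1 and 2.

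ZC3H13 had 12 regions, more than any other member, and 6 of them were called in all 10 libraries. Of the 5514 genes present in all 10 lists, 35 (0.635%) had 6 or more such regions, a limit set with the ZC3H13 count known. The canonical transcript (ENST00000679008.1) has 19 exons and, at 8024 nt, is the longest of the 9. From the start codon on, the 6 lay in exons 9, 10, 14, 15 and 16 and, 78 nt after the stop codon, in the 3′UTR.

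The largest log2 differences among the members were in ZC3H13, and both were lower in T24R2. In exon 10 (region 10), 1381 nt after the start codon, fold enrichments were 5.81, 6.71, 8.97, 11.8 and 10.9 in T24 and 5.98, 5.97, 4.17, 5.90 and 4.37 in T24R2. Of the T24 libraries, 4 lay above every T24R2 library and replicate 1 lay among them. The log2 difference was −0.81 (SE 0.26, 95% confidence interval −1.34 to −0.28), with an unadjusted p of 0.00460 and an adjusted p of 0.135 by limma. In exon 16 (region 3), 611 nt before the stop codon, fold enrichments were 15.4, 5.12, 5.58, 4.58 and 4.86 in T24 and 2.98, 5.87, 3.19, 4.49 and 2.77 in T24R2. Replicate 1 of T24 stood far above the other 9 libraries, the difference was −0.86 (SE 0.31, 95% confidence interval −1.50 to −0.22), and the limma p was 0.0105 unadjusted and 0.195 adjusted. Without that replicate the difference was −0.55.

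The exon 11 region of ZC3H13 (region 9), 1815 nt after the start codon, was listed in all 5 T24R2 libraries and in 1 from T24 (Fisher's exact test, unadjusted p = 0.0476, adjusted p = 0.517). Replicate 4 of T24 had a fold enrichment of 4.37, and T24R2 replicates 1 to 5 had 3.71, 8.43, 3.38, 3.66 and 2.85, at percentiles 9.68, 58.5, 6.41, 6.97 and 1.99. Peaks there were weak apart from replicate 2 of T24R2, and with a fold enrichment of at least 4 the counts were 1 and 1. Exon 11 was thus listed in more T24R2 libraries, while the neighbouring exon 10 was lower there in level. These are unlike measures, and the T24R2 median fold enrichment at exon 11, 3.66, was not above the T24 value. The exon 10 difference did not pass the adjusted threshold, and the adjusted presence test could pass no region. Of the other 9 ZC3H13 regions, the 4 tested for level had log2 differences between −0.28 and 0.32, and 3 regions were listed in 1 library each.

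RBM15 (ENST00000369784.9) had 1 wide region of 2873 bases over its coding exon 1, present in all 10 lists. Summits clustered 960 nt after the start codon in 4 T24 and 2 T24R2 libraries and 1823 nt after it in 2 and 2. Fold enrichments were 9.17, 9.92, 11.7, 5.99 and 4.29 in T24 and 11.4, 9.26, 10.9, 13.6 and 5.25 in T24R2, with a log2 difference of 0.22 (95% confidence interval −0.43 to 0.87, limma adjusted p = 0.817). Each line had at least 1 library well below the others. A 3′UTR region 49 nt after the stop codon was listed in 2 T24 and 1 T24R2 libraries.

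RBM15B is a gene with 1 exon (ENST00000563281.2), and its peaks merged into 1 region of 3083 bases with 20 summits. The most common position was 86 nt before the stop codon, in 5 T24 and 3 T24R2 libraries, and the next was 682 nt before it, in 4 and 2. Replicates 2 and 4 of T24R2 had 1 summit each in the whole region, neither at the most common position. Their lists had the widest peaks of that line, with medians of 353 and 304 nt. Whether peak width takes part in the number of summits was not tested. Fold enrichments ran from 4.55 to 9.35 in T24 and from 5.90 to 9.91 in T24R2 (log2 difference 0.26, 95% confidence interval −0.26 to 0.77, limma adjusted p = 0.713).

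CBLL1 (ENST00000440859.8) had its main region in the last exon, exon 6, in all 10 lists. Summits formed 3 clusters, with medians 845, 225 and 60 nt before the stop codon. The first was present in 3 T24 and 0 T24R2 libraries, the next in 2 and 2, and the one nearest the stop codon in 3 and 3. Fold enrichments were 8.11, 7.88, 8.31, 6.88 and 11.7 in T24 and 5.23, 7.44, 8.21, 11.3 and 11.2 in T24R2. The lines overlapped, with a log2 difference of −0.11 (95% confidence interval −0.66 to 0.43, limma adjusted p = 0.893). A region over the 5′ end of another CBLL1 isoform, which overlaps CBLL1-AS1 on the opposite strand, was listed in 1 library of each line. A further 10 CBLL1 summits lay outside its exons and were not counted, of 15 such summits over the 9 genes.

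METTL16 (ENST00000263092.11) had a strong coding region in its last exon, with a middle summit 312 nt before the stop codon. Fold enrichments were 10.1, 10.5, 12.5, 17.6 and 9.65 in T24 and 7.81, 16.3, 7.60, 10.7 and 9.27 in T24R2, all at percentiles of 63.2 or more in their lists. The log2 difference was −0.34 (95% confidence interval −0.85 to 0.17, limma adjusted p = 0.582). A weaker region lay 3573 nt after the stop codon and was listed in 4 T24R2 libraries and in 1 from T24 (Fisher's exact test, unadjusted p = 0.206). Leaving out replicate 1 of T24, the only T24 library with it, widens that split by construction. Fisher's exact test then gave an unadjusted p of 0.0476 and an adjusted p of 0.432. In that setting 11.0% of all regions had an unadjusted p under 0.05.

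**Figure D3:**
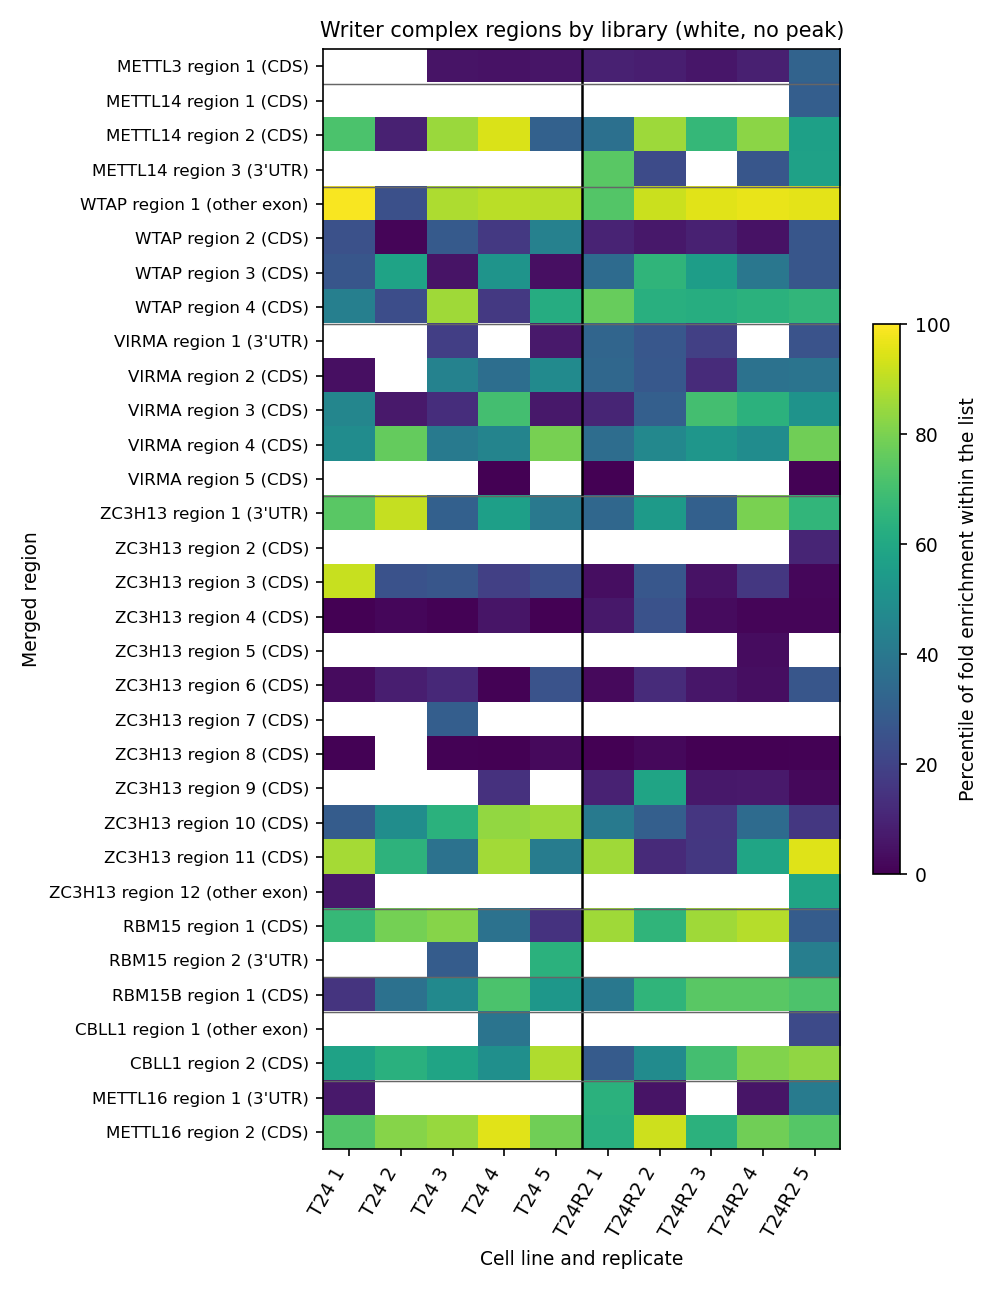
Percentile of fold enrichment within each list for the 32 writer complex regions (rows, numbered along the chromosome for each gene) in the 5 T24 and 5 T24R2 libraries (columns), with white for no peak. The 17 rows without white are the regions called in all 10 libraries, and METTL14 region 3 and ZC3H13 region 9 are filled mainly on the T24R2 side.

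The comparison of the lines asked whether m6A on the writer complex transcripts differs between cisplatin-sensitive and cisplatin-resistant cells. By presence, 11 of the 32 regions were listed in more T24R2 than T24 libraries and 2 in more T24 libraries. With lists trimmed to equal length the counts were 7 and 4 of 26. Over all 43676 merged regions, 52.6% were listed in more T24R2 libraries, and 46.8% of the 25300 exonic regions of protein-coding genes. Such shares were not taken for regions in more T24 libraries or for the trimmed lists. Whether the longer T24R2 lists take part in the members' split was not tested. By Fisher's exact test with Benjamini-Hochberg adjustment over all regions, 0 of the 32 passed 0.05, and 0 of all regions did. The smallest p that 5 against 5 libraries allow is 0.00794, and a region split 5 against 0 had an adjusted p of 0.195, so no region could pass in these data and the count of 0 carries no information. At an unadjusted p under 0.05, 2 of the 32 passed, METTL14 region 3 and ZC3H13 region 9, both listed in more T24R2 libraries. The background was 9.21% of all regions (7.11% with more T24R2 and 2.09% with more T24 libraries) and 7.7% of exonic regions, so the members' share was near it. Regions called in all 10 libraries made up 17 of 32, beside 21.9% of all regions and 31.5% of exonic regions of protein-coding genes, and 4 of the 32 were in 1 list alone, beside 27.9% and 20.7%.

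By level, limma was fitted to the log2 fold enrichment of all 9577 regions called in all 10 libraries after each library's median was subtracted. It called 76 regions (0.794%) at an adjusted p under 0.05, and 0 of the 17 member regions. At an unadjusted p under 0.05 it passed 2 of the 17, ZC3H13 regions 3 and 10, beside 14% of all tested regions. T24R2 was higher in 7 of the 17 and lower in 10, where 51.6% of all tested regions were higher. The members' median log2 difference was −0.04, with a range from −0.86 to 0.32, and the median over all tested regions was 0.02. In 0 of the 17 were the libraries of the lines separated without overlap, which held for 4.1% of all tested regions. On simulated data for this comparison, with 200 of 9577 regions changed, 23.0% of regions changed by 1 on the log2 scale were recovered, 97.5% of those changed by 2 and 0 of those changed by 0.5. The ZC3H13 differences lay between the sizes 0.5 and 1 of that simulation.

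**Figure D4:**
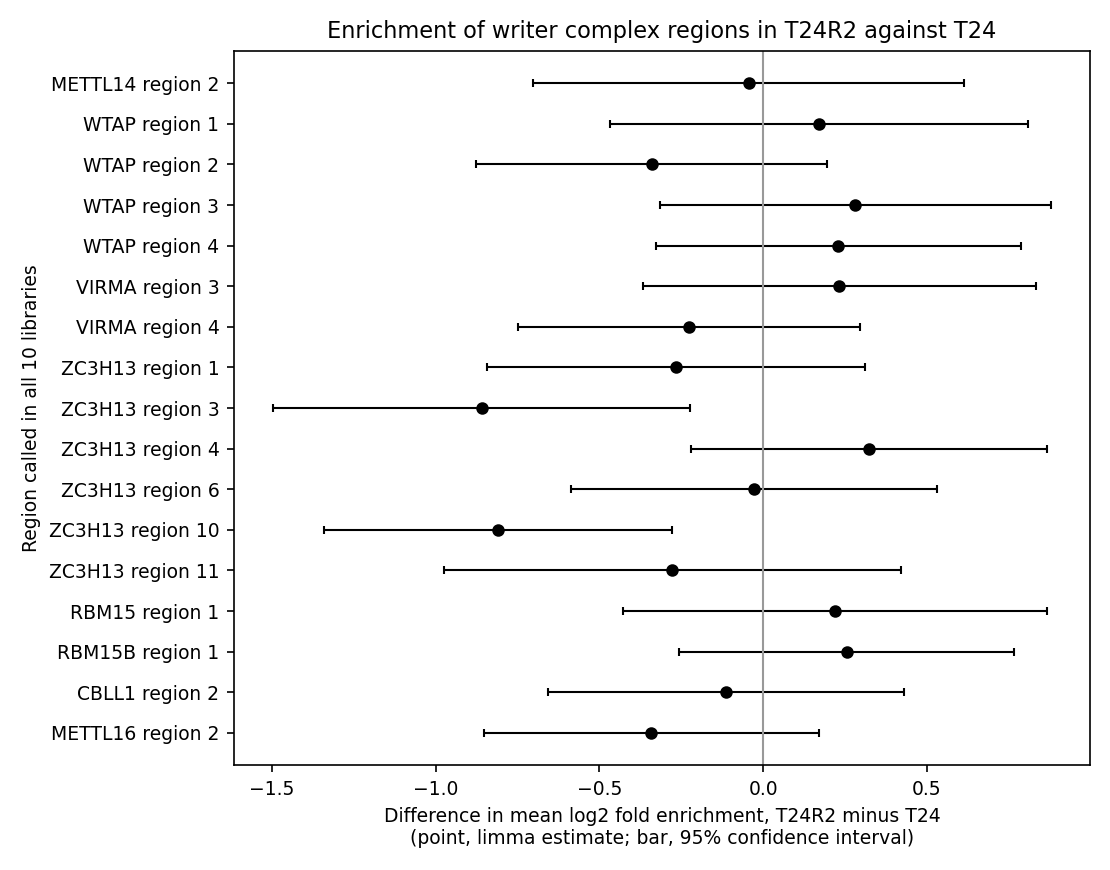
Difference in mean log2 fold enrichment, T24R2 minus T24, for the 17 writer complex regions called in all 10 libraries (points, limma estimates; bars, 95% confidence intervals; grey line, no difference). The intervals of ZC3H13 regions 3 and 10 lie below 0 and the other 15 span it.

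Within a transcript, each region was set against the mean of the other regions of its gene in the same library, which removes what moves all regions of a transcript together. Over 4645 such regions limma called 11 (0.237%), and 0 of the 12 member regions, which came from WTAP, VIRMA and ZC3H13. For WTAP the contrast includes the 5′ region shared with SOD2, so what moves WTAP RNA alone need not cancel there. The 2 VIRMA regions were each set against the other, and their differences, 0.46 and −0.46, are the same comparison. At an unadjusted p under 0.05 only the exon 15 region of ZC3H13 (region 4) passed, beside 9.58% of all tested regions. It was higher in T24R2 relative to the mean of the gene's other regions by 0.77 (95% confidence interval 0.07 to 1.48, limma adjusted p = 0.445). That mean includes the exon 10 and exon 16 regions, both lower in T24R2. The log2 difference of region 4 by itself was 0.32 (95% confidence interval −0.22 to 0.87). Its fold enrichments were low, from 1.99 to 3.50 in T24 and from 2.58 to 5.70 in T24R2. The exon 10 and exon 16 regions had within-gene differences of −0.59 and −0.65, with intervals that spanned 0.

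Related enzymes and the supply of methyl donor were taken as companion lists. Of 5 other adenosine methyltransferase genes, METTL5, TRMT112 and ZCCHC4 had no exonic summit in any list. PCIF1, which methylates adenosine next to the cap, had a 3′UTR region in all 10 libraries with a log2 difference of 0.05 (limma adjusted p = 0.951), and METTL4 had 3 regions, none of them in all 10. Of 4 methyl donor genes, MAT2A, the methionine adenosyltransferase that METTL16 regulates, had a 3′UTR region in all 10 libraries, MAT2B had none, and AHCY and AHCYL1 had regions in some libraries. The MAT2A region was weak, with fold enrichments of 2.05 to 4.73 and a median percentile of 3.38 over the lists. It overlaps GGCX on the genome, and its log2 difference was −0.34 (limma adjusted p = 0.610). Of the 9 regions on these lists, only those of PCIF1 and MAT2A were tested for level. Neither had an unadjusted p under 0.05 by limma, beside 14% of all tested regions. By presence none of the 9 had one by Fisher's exact test, beside 9.21% of all regions, and the adjusted test could pass no region. So few regions cannot show whether these lists differ from the background.

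For METTL14 and WTAP, the exonic regions of other genes most like the member's strongest region over the 10 libraries were sought among 7960 regions, by Pearson correlation of centred log2 fold enrichment. METTL14 was closest to MANEAL (r = 0.900) and ZBED4 (r = 0.888), and the WTAP 5′ region to TRIM13 (r = 0.890) and C5orf15 (r = 0.888). These are the highest of 7960 correlations over 10 points that share libraries, and they are given as a description. METTL3 had no region in all 10 libraries for such a comparison.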

How the data were processed

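The 10 IP peak lists, 1 per library, and a merged list were deposited; inputs have no list of their own here. Per the study's methods and processing notes, the authors aligned reads to hg38 with STAR 2.7.0 and GENCODE 39, kept unique reads without duplicates with SAMtools 1.10 and called IP over input with MACS2 3.0.0a6. Each deposited row gives a fold enrichment (a ratio of IP over local input), a −log10 p and a −log10 q, and a score derived from q by the authors' caller; the lowest −log10 q was 2.00. Groups came from sample titles.

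Summits were placed on exons of GENCODE 44. The authors' merged list of 43676 regions was identical to a bedtools 2.31.1 merge. A library had a region if a peak overlapped it, and its highest fold enrichment was used. Presence was tested by Fisher's exact test and level by limma 3.58.1, both adjusted by Benjamini-Hochberg over all regions, at 0.05. Without read counts no count test was possible, and fitted values rest on called peaks alone. Presence of a peak also depends on transcript level, which was not tested. The fits were tested on simulated data.

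The genes named were the 9 members, companion lists of 5 and 4 genes, the 2 genes most like METTL14 and the 2 most like WTAP, and, chosen after their values were seen, GATA3 and FOXA1 from a list of 12 urothelial markers. Members and lists were chosen with earlier results of these data known. VIRMA sequence is not printed.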

Additional observations from a re-analysis of the deposited data

Results flagged for a closer look

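In 53 groups of 5 libraries (each line's member summit counts, strongest percentiles per gene and centred log2 fold enrichments per region), 6 had 1 library far from the other 4, by a gap above 0.71 of the group's range (Dixon's 95% limit); chance flags about 1 group in 20.

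The METTL3 peak reached the 31.8th percentile in replicate 5 of T24R2, whose list is the longest, while the other T24R2 libraries had it between 6.0 and 9.02. The exon 16 region of ZC3H13 was 0.77 log2 units above the library median in replicate 1 of T24 and −1.02 to −0.60 in the other T24 libraries. The strongest ZC3H13 peak was at the 63.8th percentile in replicate 3 of T24, where the others lay between 85.5 and 91.6.

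The strongest WTAP peak was low in replicate 2 of T24 (57.9, others 87.5 to 98.9), which has the shortest list, and in replicate 1 of T24R2 (76.7, others 92.1 to 96.8). The strongest RBM15B peak was low in replicate 1 of T24R2 as well (40.2, others 65.4 to 74.3). Replicate 1 of T24R2 was thus the low library for both genes. Whether list length or depth takes part in these values was not tested.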

How the results depend on the processing

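No member region passed the adjusted threshold for level or within-gene contrast under any alternative run, including the settings chosen after the data were seen. For presence the adjusted test could call no region in any setting, so its counts of 0 say nothing about stability. The mean difference in exonic summits, T24R2 minus T24, was 1.8 and moved to 4.8 with −log10 q of at least 5 and 6 with at least 10, but was −0.4 with lists trimmed to equal length. It ranged from 0.55 to 2.5 with 1 library left out. Without each library in turn, level, within-gene and presence calls among members were 0 to 0. Over all regions, level calls ranged from 29 (without replicate 4 of T24R2) to 85 and within-gene calls from 0 to 6. METTL14 region 3 and ZC3H13 region 9 lost their unadjusted p under 0.05 with −log10 q of at least 10 and with lists trimmed to equal length.

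Libraries with the same replicate number showed little shared deviation in fold enrichment. Correlations of same-numbered deviations were 0.0002, −0.04, 0.05, −0.01 and 0.12, and 1 of 5 T24 libraries correlated best with its own number. The labels do not say whether same-numbered libraries were handled together. With the replicate block the member calls were 0 for presence, level and within-gene contrast, and calls over all regions fell from 76 to 50 for level and from 11 to 0 within genes. For presence the block cannot pass 0.05, since its smallest two-sided p is 0.0625.

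Some directions turned. Without centring, which moved the median of all regions to 0.11, ZC3H13 region 6 was 0.069 and METTL14 region 2 was 0.053; as percentile points they were 0.489 and 7.43. With log10 of the −log10 q in place of log2 fold, the within-gene differences were −0.0015 for ZC3H13 region 11, −0.029 for WTAP region 1, 0.020 for WTAP region 2 and −0.014 for WTAP region 3, where log2 fold gave 0.05, 0.11, −0.57 and 0.26. With 1 library left out, log2 differences ranged from −0.21 to 0.036 (CBLL1 region 2), −0.29 to 0.18 (METTL14 region 2), −0.11 to 0.41 (WTAP region 1) and −0.21 to 0.13 (ZC3H13 region 6). Within genes they ranged from −0.14 to 0.33 (WTAP region 1), −0.010 to 0.43 (WTAP region 4), −0.087 to 0.26 (ZC3H13 region 1) and −0.24 to 0.35 (ZC3H13 region 11). The cause was not tested. Peak lists without depth limit what an absent peak can show.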
